A study of Homo sapiens with 2 samples.

Results

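Peaks of chromatin bound by mTOR, the nutrient-sensing kinase, were examined at the genes for amino acid, peptide and monocarboxylate transporters of 8 solute carrier families. Sequencing after chromatin immunoprecipitation (ChIP-seq) was done on untreated MDA-MB-231 cells, a long-established line of human breast cancer of the triple-negative type, cultured in DMEM with serum. There was 1 library from the mTOR antibody, and 1 input library served as the reference for peak calling. Neither library was replicated, so no test between conditions was possible, and every interval below covers counting error only. Members were the peaks whose nearest gene, in the deposited annotation, was typed as protein-coding and named SLC1A, SLC3A, SLC7A, SLC15A, SLC16A, SLC36A, SLC38A or SLC43A followed by a number. They numbered 61 of the 21440 peaks and belonged to 30 of the 60 genes of these families. SLC7A6OS also fits the name pattern but encodes no transporter, had no peak and was left out of the 60. Peaks do not measure expression, so the cell line was not checked against marker genes, and the read depth is unknown.

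Amino acid transporters supply leucine, glutamine, arginine and other amino acids that activate mTOR complex 1 at the lysosome. SLC3 proteins are heavy chains that carry SLC7 light chains to the membrane, and the pair of SLC3A2 (CD98) with SLC7A5 (LAT1) imports leucine and other large neutral amino acids in exchange for glutamine. SLC1 and SLC38 members take up glutamine, alanine, serine or glutamate with sodium, and SLC15 and SLC36 carriers move peptides or small amino acids together with protons. SLC16 proteins include the monocarboxylate transporters that move lactate and pyruvate across the membrane. Some members of these families carry other substrates, such as SLC43A3 for purine nucleobases.

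The promoters of SLC3A2 and of 2 of its light chains, SLC7A5 and SLC7A6, are shown first and were picked because they bore peaks. Of the 8 SLC7 light chain genes, only these 2 had a promoter peak (25%, 3.19 to 65.1%), against 15.5% of all protein-coding genes. Each run gives the 250 bases before a RefSeq start site on GRCh38.p14, the same assembly as the hg38 build of the peaks, 5′ to 3′ on the strand of the gene. Capitals mark GGGCGG, the GC box, or its reverse complement on either strand, and in SLC7A5 also CACGTG, the E-box. SLC7A5 lay at chr16:87869508-87869757 on the minus strand, SLC3A2 at chr11:62880646-62880895 on the plus strand and SLC7A6 at chr16:68264276-68264525 on the plus strand.
SLC7A5: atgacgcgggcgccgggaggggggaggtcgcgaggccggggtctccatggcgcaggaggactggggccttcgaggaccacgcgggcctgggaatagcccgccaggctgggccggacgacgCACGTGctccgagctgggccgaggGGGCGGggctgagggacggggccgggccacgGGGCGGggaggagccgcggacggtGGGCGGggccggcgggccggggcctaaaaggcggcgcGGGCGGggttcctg
SLC3A2: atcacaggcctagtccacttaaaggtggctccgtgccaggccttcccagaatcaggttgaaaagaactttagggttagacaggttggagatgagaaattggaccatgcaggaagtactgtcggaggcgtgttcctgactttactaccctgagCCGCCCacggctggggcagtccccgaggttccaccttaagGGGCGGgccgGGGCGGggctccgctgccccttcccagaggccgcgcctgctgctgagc
SLC7A6: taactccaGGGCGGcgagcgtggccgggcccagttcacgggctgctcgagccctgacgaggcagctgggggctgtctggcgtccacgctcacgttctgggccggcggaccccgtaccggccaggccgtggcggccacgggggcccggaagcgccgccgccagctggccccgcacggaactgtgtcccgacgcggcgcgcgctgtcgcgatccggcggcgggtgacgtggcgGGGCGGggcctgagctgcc

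Of the 3 runs, only that of SLC7A5 held an E-box, from -130 to -125 before the start, beside 4 GC boxes. SLC3A2 had 3 GC boxes and SLC7A6 had 2. GC content was 79.6% for SLC7A5, 60.8% for SLC3A2 and 77.6% for SLC7A6, against a median of 62.0% over the windows of all protein-coding genes. The promoter table, which adds 50 bases after each start to these 250, held 45 of the 60 transporter genes with 73 windows. Peaks overlapped 6 of these windows, of SLC7A5, SLC3A2, SLC7A6, SLC43A1, SLC1A4 and SLC16A3. All 6 held GGGCGG on either strand, which 41 of the 73 transporter windows (56.2%) and 56.3% of the 22155 windows of protein-coding genes also held. CACGTG stood in 1 of the 6, in 11 of the 73 transporter windows (15.1%) and in 8.34% of all windows. TGATGNAA, a composite site of ATF4 and C/EBP factors, stood in 1 of the 6, in 7 of the 73 (9.59%) and in 2.70% of all windows. Neither ACTACAA, a part of the RONIN and ZNF143 site, nor the ETS sequence CCGGAAGT was among the letters of the 6 windows, and they stood in 3 and 2 of the 73 and in 2.85% and 5.34% of all windows. Each motif was searched on both strands, and these matches describe letters, not binding. Some genes gave more than 1 window, so windows are not independent, and the differences in share were not tested. Windows under peaks at other genes were not compared, in number or in motifs, so the 6 are not set apart from them.

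The number of genes with a peak at the start site was near the background. A peak assigned to the gene overlapped 1 kb either side of its start in 7 of 60 transporter genes (11.7%, exact Clopper-Pearson 95% interval 4.82 to 22.6%), while 15.5% of the 19970 protein-coding genes had one. The 7 genes were SLC7A5, SLC7A6, SLC3A2, SLC16A3, SLC43A1, SLC43A3 and SLC1A4. Their 9 peaks had scores from 26 to 211 with a median of 49, against a median of 54 over the 3345 peaks that met this criterion for any protein-coding gene. The score is the authors' own whole number per peak of unstated scale, and it serves only to rank peaks within the list. At any distance, 30 of the 60 genes were nearest gene to a peak (50%, 36.8 to 63.2%), against 41.7% of all protein-coding genes. The transporter genes were also longer, with a median of 45.5 kb against 24.2 kb, and the part of gene length in this count was not tested.

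SLC7A5, the light chain of the leucine importer, had the highest promoter score of these families. Its peak covered 87869482 to 87870169 on chromosome 16, was 688 bp wide with its centre at -318 bp from the start, and scored 211, rank 1971 of the 21440 peaks. A second, weaker peak of score 27 lay further upstream, at 87870554 to 87870984, with its centre at -1262 bp. Its nearer edge was 1046.5 bp from the start, just beyond the 1 kb window. A further peak of score 22 stood in intron 1 of SLC7A5 (87860661 to 87861278) but was assigned to MIR11401. The pseudogene SLC7A5P2, a partial copy of SLC7A5 on the same chromosome, had a promoter peak of score 103 and 1471 bp (21520125 to 21521595). How reads that align to several places were treated is not given in the sources used here, so sharing of reads between gene and copy was not tested.

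SLC7A6, the y+LAT2 light chain that exchanges arginine for neutral amino acids, had 1 peak, of score 142, at 68263711 to 68264446 on chromosome 16. Its centre was at -448 bp, and the peak ended 80 bp before the start. SLC3A2, the heavy chain of both, had a peak across a start site inside the gene (chromosome 11, 62880535 to 62881004, centre at -127 bp) with the lower score of 42. A stronger SLC3A2 peak, of score 119, stood at 62879092 to 62879524 in intron 3 of an SLC3A2 transcript over an AluSz6 element, with its centre at -1588 bp from the same start. SLC7A5 and SLC7A6 thus had promoter scores above the median of 54 for such peaks, and the heavy chain had its higher score outside the window.

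SLC16A3, which encodes MCT4, the lactate exporter of glycolytic cells, was the transporter gene with the most promoter peaks, 3 in all. They scored 49 at -676 bp, 33 at 280 bp and 126 at -1428 bp, the first pair from the same annotated start and the last from a start further downstream (chromosome 17, 82227508 to 82227952, 82228512 to 82228861 and 82230188 to 82231420). The strongest was 1233 bp wide, was deposited in intron 1 over a CpG island, and came within 811.5 bp of its start only by its width. Another 2 peaks in or beside the SLC16A3 span were assigned elsewhere, 1 of score 44 to MIR6787 and 1 of score 85 to CCDC57. Counted together, 5 peaks lay in or within 1 kb of SLC16A3.

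The remaining promoter peaks were weak. SLC43A1, the LAT3 facilitator of large neutral amino acids, scored 50 (chromosome 11, 57514935 to 57515298, centre at -207 bp). SLC43A3 scored 30 on the same chromosome (57426938 to 57427413, -54 bp). SLC1A4, the ASCT1 exchanger of alanine, serine and cysteine, scored 26 (chromosome 2, 64989001 to 64989265, -266 bp). All 3 scores were below the median of 60 for the 15497 peaks assigned to protein-coding genes. In addition, a peak of score 23 had its centre 398.5 bp past the higher-coordinate edge of the SLC16A6 span (chromosome 17, 68291709 to 68292046). The deposited annotation gave this peak to ARSG at -258 bp, so SLC16A6 was not counted among the 7 genes.

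**Figure D1:**
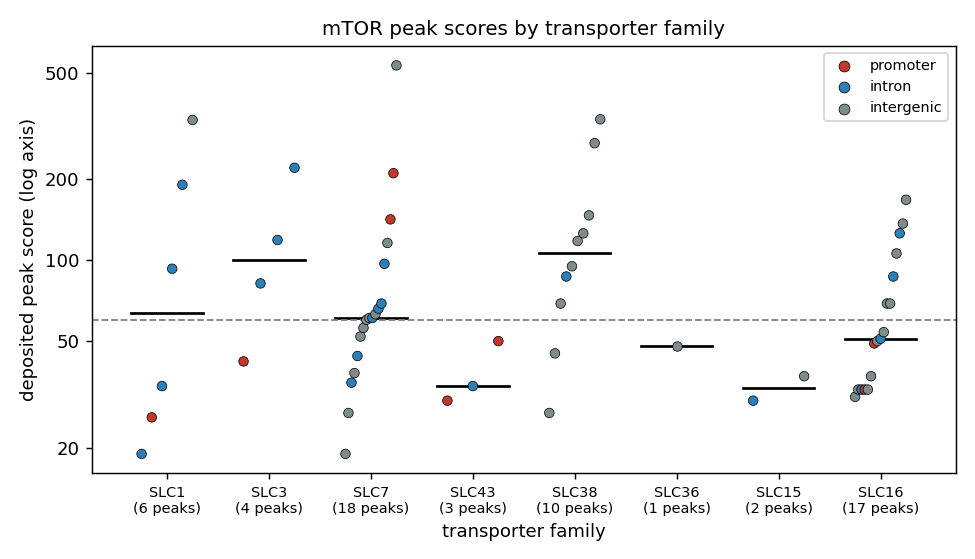
Deposited peak score (log axis) of the 61 transporter gene peaks by family, 1 point per peak from 1 library, coloured by deposited class; black bars are family medians and the dashed line is the median of 60 over peaks of protein-coding genes. Points within a family are spread sideways in order of score, and the SLC38 median of 106.5 lies above the line while the SLC43 and SLC15 medians, 34 and 33.5, lie below it.

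Families differed in where their peaks lay, although most held few peaks. SLC43 had a peak at each of its 3 genes (100%, 29.2 to 100%), against 41.7% of all protein-coding genes. A promoter peak stood at 2 of the 3 (66.7%, 9.43 to 99.2%), against 15.5%, and both intervals include these backgrounds. The third SLC43 peak lay in an intron of SLC43A2 (score 34), and none of the 3 lay over a repeat. SLC38, the sodium-coupled neutral amino acid transporters, had 10 peaks, 0 at a promoter, 9 intergenic and 9 over a repeat. Of the 10 peaks, 9 belonged to the neighbouring genes SLC38A1, SLC38A2 and SLC38A4 on chromosome 12. Over all intergenic peaks of protein-coding genes, 81.9% carried a repeat label. Of the 12 SLC38 genes 0 had a promoter peak, against 15.5% of all protein-coding genes. The count of 0 allows up to 26.5% by the exact interval and 25% by a limit of 3 counts. SLC7 had 18 peaks, of which 10 were intergenic, 6 intronic and 2 at promoters, and SLC16 had 17, of which 11 were intergenic, 4 intronic and 2 in the deposited promoter class. SLC1 had 4 intronic peaks of 6, SLC3 had 3 of 4, SLC15 had 1 intronic and 1 intergenic peak, and SLC36 had 1 intergenic peak. Among SLC7 genes, 6 of the 8 light chain genes (75%, 34.9 to 96.8%) had 13 peaks. Of the 5 cationic carrier genes, 3 (60%, 14.7 to 94.7%) had 5 peaks. Both intervals include the 41.7% of all protein-coding genes with a peak. The differences between families rest on 1 to 18 peaks each and were not tested.

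SLC38 had the highest median, 106.5 over 10 peaks (27 to 335), followed by SLC3 with 100.5 over 4 (42 to 221), SLC1 with 63.5 over 6 (19 to 333) and SLC7 with 61 over 18 (19 to 532). SLC16 had 51 over 17 (31 to 168), SLC36 a single peak of 48, SLC43 had 34 over 3 (30 to 50) and SLC15 had 33.5 over 2 (30 and 37). The ranges of the 4 families with at least 6 peaks overlapped throughout. The SLC38 median rested on 9 peaks of the neighbouring genes SLC38A1, SLC38A2 and SLC38A4 and on 1 peak of SLC38A8. Within SLC16, the 10 peaks of the proton-linked carriers SLC16A3 and SLC16A7 had a median of 78 (33 to 168), and the 7 peaks of the other SLC16 genes had 33 (31 to 54). Over all 61 peaks the median was 61 and the quartiles were 37 and 116, against 60, 37 and 102 for all peaks of protein-coding genes.

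**Figure D2:**
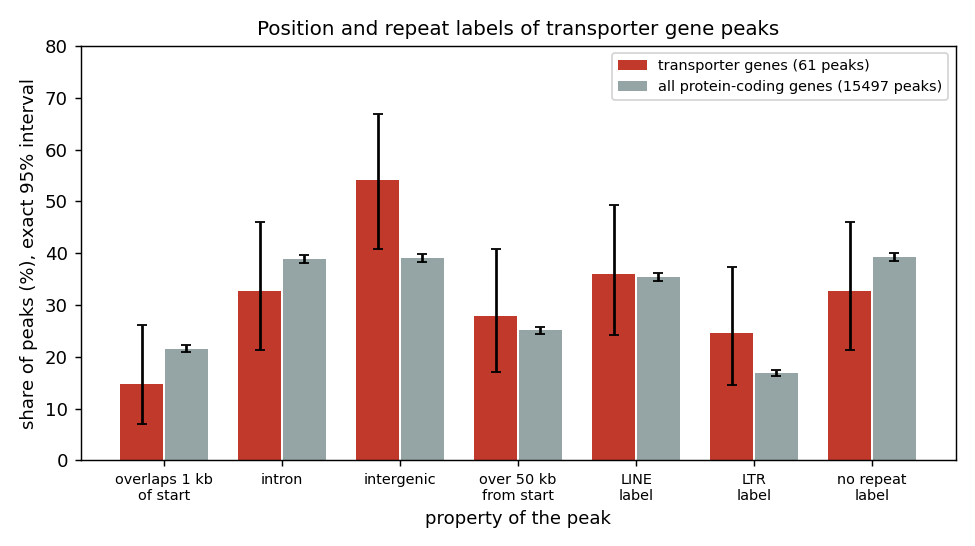
Share of peaks in percent with exact 95% intervals (error bars, counting error only) for 61 transporter gene peaks and the peaks of all protein-coding genes, which include the 61. The intergenic share of the transporter peaks, 54.1%, is higher than the 39.0% of all protein-coding genes, and the intervals of the transporter peaks for the other 6 properties drawn include the value over all protein-coding genes.

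By deposited class, 33 of the 61 peaks were intergenic (54.1%, 40.8 to 66.9%), 20 were intronic (32.8%, 21.3 to 46.0%) and 8 were in the promoter class (13.1%, 5.84 to 24.2%). Over all peaks of protein-coding genes these shares were 39.0%, 38.8% and 15.98%. No transporter peak lay in an exon, an untranslated region or a gene end (0 of 61, which allows up to 5.87% by the exact interval and 4.92% by a limit of 3 counts), against 6.15%. Of the 61 peaks, 28 belonged to 7 genes with at least 3 peaks, SLC16A7, SLC7A13, SLC38A1, SLC38A4, SLC7A14, SLC16A9 and SLC16A3. Genes with at least 3 peaks were not particular to this group: they were 7 of the 60 transporter genes and 1597 of the 19970 protein-coding genes. The difference in share was not tested, nor was the part of the greater length of the transporter genes in it. Without these 7 genes, 13 of 33 peaks were intergenic, 39.4%, against 34.4% when genes with at least 3 peaks were also left out of the protein-coding set. More than 50 kb from the assigned start lay 17 peaks (27.9%, 17.1 to 40.8%, against 25.1%), and with the same exclusion the shares were 9.09% and 16.04%. Peaks of 1 gene share their neighbourhood and are not independent, so the intervals are too narrow.

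**Figure D3:**
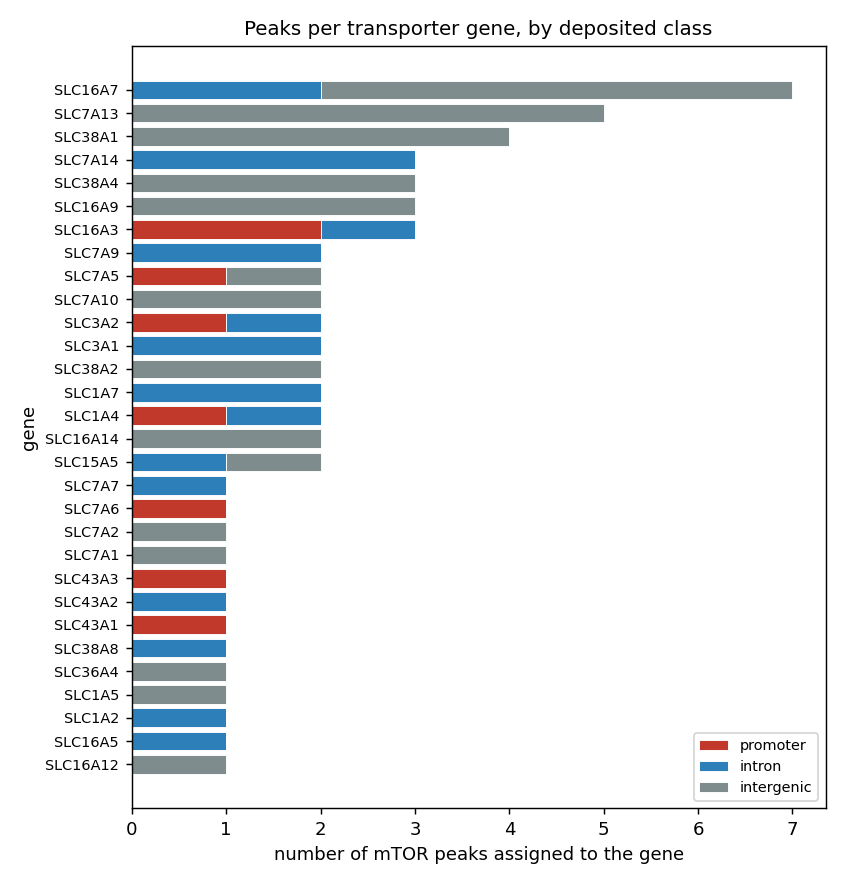
Number of peaks assigned to each of the 30 transporter genes with a peak, stacked by deposited class. SLC16A7 leads with 7 peaks, none at its promoter, and 13 genes have a single peak.

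The intron class did not always mean an intron of the transporter. The transcript named in the annotation belonged to another gene for 5 of the 20 intronic peaks. Of these, 3 were assigned to SLC7A14 but lay in introns of the antisense gene SLC7A14-AS1, at -29.6, -124.0 and -133.0 kb from the SLC7A14 start, with scores of 97, 35 and 69. The other 2 were assigned to SLC7A9, the light chain of the renal cystine carrier, but lay in intron 16 of CEP89, both over L1M2 sequence, with scores of 61 and 66. In the opposite direction, 2 peaks in SLC16A12 introns were assigned to SLC16A12-AS1 (93 and 23), and 3 peaks in SLC38A6 were assigned to TRMT5, among them 1 of score 69 at a SLC38A6 transcript end. SLC38A6 therefore had peaks within its span and none by assignment. Of the 61 peaks, 23 had their centre inside the RefSeq span of the assigned gene. Among these 23 were the peaks of SLC16A12 at -11.28 kb and of SLC7A2 at -1.842 kb, although both were deposited as intergenic.

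Intronic peaks that did lie in the assigned gene included those of the other heavy chain gene and of glutamate transporter genes. SLC3A1, the heavy chain partner of SLC7A9, had peaks of 221 in intron 7 over L1MB4 and 82 in intron 6 over L1PA6 (chromosome 2, 44310167 to 44310960 and 44303689 to 44304117). SLC1A7, a retinal glutamate transporter, had 191 in intron 3 without a repeat label and 93 in intron 1 over HAL1. SLC1A2, the main astrocyte glutamate transporter, scored 34 in intron 1, and SLC1A4 had a second peak of 19 in intron 3. SLC38A8 scored 87 in intron 6 over an MSTC internal sequence, SLC7A7, the y+LAT1 light chain, scored 44 in intron 3 over AluSg7, and SLC16A5 scored 33 in intron 3.

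The 3 highest scores outside promoters all belonged to intergenic peaks over repeats. The highest of all 61, with a score of 532 and rank 373, lay at -50.2 kb from the SLC7A13 start over a MER4B internal sequence (chromosome 8, 86280184 to 86281068). SLC7A13 encodes a light chain of the kidney tubule. SLC38A4, which transports neutral and cationic amino acids mainly in liver and placenta, had 335 at -32.2 kb over a MER4 internal sequence (chromosome 12, 46857599 to 46858889). SLC1A5, the glutamine exchanger ASCT2, had no promoter peak, and its only peak scored 333, 18.1 kb from the start over L2a (chromosome 19, 46766446 to 46767021). The lead peaks of the other families were those of SLC3A1 and SLC43A1 given above, 168 for SLC16A7, 48 for SLC36A4 at -49.0 kb over L1PA7, and 37 for SLC15A5 at -32.0 kb without a repeat label.

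Repeat labels stood at 41 of the 61 centres (67.2%, 54.0 to 78.7%), against 60.8% for all peaks of protein-coding genes. In the whole table a repeat label was given only to peaks of the intronic and intergenic classes, so the 8 peaks of the promoter class carried none. Among intronic and intergenic peaks alone the shares were 41 of 53 (77.4%, 63.8 to 87.7%) and 78.1%. LINE elements, nearly all L1, held 22 centres (36.1%, 24.2 to 49.4%, against 35.3%), and long terminal repeat (LTR) retroviral elements held 15 (24.6%, 14.5 to 37.3%, against 16.8%). There were 2 SINE and 2 DNA transposon labels, the latter both at SLC7A14. The LTR centres comprised 7 of ERV1, 7 of the MaLR group and 1 of ERVK, and fell at 6 genes, with 6 of the 15 at SLC16A7 and 4 at SLC7A13. Median scores were 95 for the LTR peaks and 62 for the LINE peaks, against 78 and 60 over protein-coding genes. The 20 peaks without a repeat label had a median of 43.5, against 54.

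**Figure D4:**
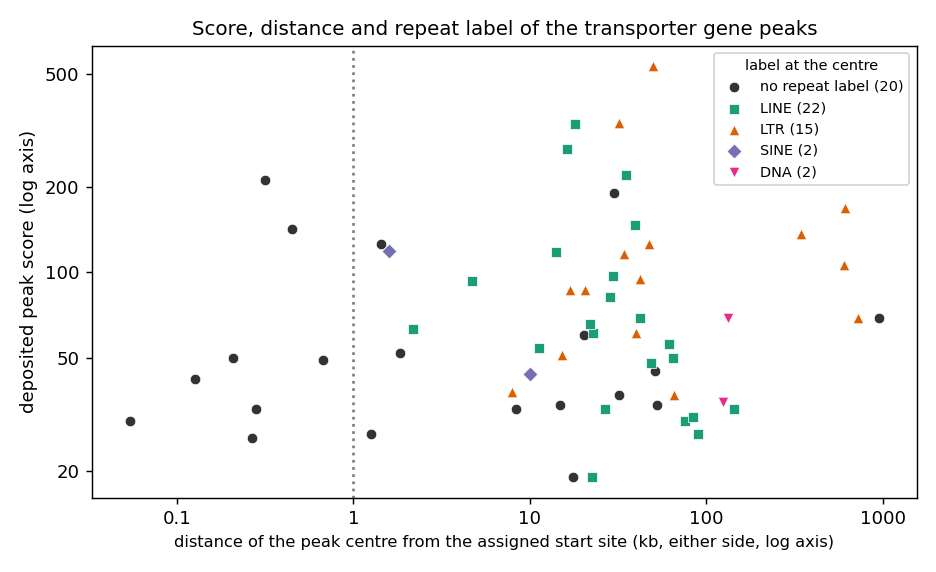
Deposited peak score against the distance of the peak centre from the assigned start site in kb on either side (both axes logarithmic), 1 point per peak, with symbols for the repeat class at the centre; the dotted line marks 1 kb. The 8 peaks with centres within 1 kb carry no repeat label, and the 5 peaks beyond 300 kb all belong to SLC16A7.

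SLC16A7 encodes MCT2, a high-affinity pyruvate and lactate transporter, and had the most peaks, 7, with none nearer than 15.3 kb to its start. Both of its intronic peaks stood in intron 1 over THE1C sequence, 1 over the terminal repeat (score 51) and 1 over the internal part (score 87). The other 5 were intergenic, 344.7 to 954.9 kb from the start, and were the most distant peaks of all 61. Their scores in order of distance were 137 over a THE1B internal sequence, 106 over THE1D, 168 over MER50, 69 over LTR26 and 69 without a repeat label. No peak of another gene lay among them: the 1033.4 kb between the outermost SLC16A7 peaks held 7 peaks, or 6.77 per Mb, against 9.60 per Mb over chromosome 12. At such distances the assignment says only which annotated start site was nearest.

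SLC38A1, SLC38A2 and SLC38A4, which encode the transporters SNAT1, SNAT2 and SNAT4, are neighbours on chromosome 12 and had 9 peaks, none within 10 kb of a start. Between SLC38A1 and SLC38A2, upstream of the former and beyond the far end of the latter, 6 of these peaks fell within 48.1 kb (46282843 to 46330923). SLC38A1 was assigned 4, with scores of 118 over L1MA4, 273 over L1PA6, 147 and 69 over L1PA5. SLC38A2, whose transporter is induced when amino acids are scarce, was assigned 2, with 126 over a HERVH internal sequence and 95 over THE1C. All 6 scores exceeded the median of 60 for peaks of protein-coding genes. Around SLC38A4 the scores were 335, 45 and 27. Between the outermost peaks of the 3 genes, 594.3 kb held 18 peaks, 30.3 per Mb, of which 16 carried a repeat label and 13 of these were L1. The 9 peaks not assigned to the 3 genes went to the non-coding gene LOC100288798, named SLC38A4-AS1 in RefSeq. The stretch was chosen for its peaks after they were seen, and copy number, which can raise peak density, was not tested.

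**Figure D5:**
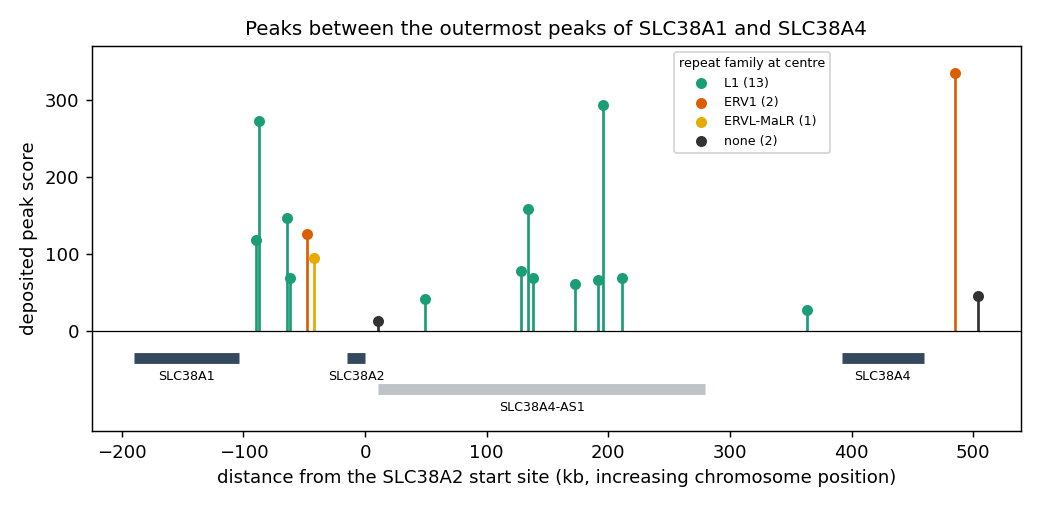
Deposited score of the 18 peaks between the outermost peaks of SLC38A1 and SLC38A4, against distance from the SLC38A2 start site in kb, coloured by repeat family at the centre; bars below the axis are RefSeq gene spans. All 6 peaks between SLC38A1 and SLC38A2 are over repeats, and none of the 18 lies inside the SLC38A1, SLC38A2 or SLC38A4 span.

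SLC7A13 had 5 peaks within 112.5 kb on chromosome 8, scored 532, 116, 61, 56 and 38, each over a repeat and 4 of them over LTR elements. No other gene's peak lay among them. SLC16A9, which transports carnitine, had 3 weak peaks of 50, 33 and 31, each over L1 sequence and 64.5 to 144.5 kb from the start. SLC16A14 had 37 and 33, SLC15A5 37 and 30, SLC7A10, the Asc-1 light chain, 63 and 60, and SLC16A12 a single peak of 54. SLC7A1 and SLC7A2, the cationic amino acid transporters CAT1 and CAT2, had 1 peak each, of 19 at -22.6 kb and of 52 at -1842 bp. For 14 of the 30 genes with a peak, every peak carried a repeat label, and the other 16 had a peak without one. Over all protein-coding genes, 4637 of the 8386 gene names with a peak had a peak without a repeat label. Only SLC3A2 had both a promoter peak and a repeat-labelled peak, a count not made over all genes.

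The other 30 transporter genes were nearest gene to no peak. They included several that are closely tied to amino acid sensing or to cancer metabolism: SLC38A9, the lysosomal arginine sensor of mTOR complex 1, SLC36A1, the lysosomal proton-coupled carrier, SLC7A11, the cystine importer xCT, SLC16A1, the lactate carrier MCT1, SLC7A8, the LAT2 light chain, and SLC15A4, the lysosomal histidine and peptide carrier. Among the remaining genes were SLC1A1, SLC1A3 and SLC1A6 of the glutamate transporters, SLC7A3 and SLC7A4 of the cationic carriers, and SLC15A1, SLC15A2 and SLC15A3. SLC16 genes without a peak included SLC16A4, SLC16A6, SLC16A8, SLC16A10, SLC16A11 and SLC16A13, and SLC36 lacked peaks at SLC36A2 and SLC36A3. SLC38 lacked them at SLC38A3, SLC38A5, SLC38A6, SLC38A7, SLC38A10, SLC38A11 and SLC38A12. By position, however, SLC16A6 and SLC38A6 had peaks that were assigned to neighbours, as given above. Of the 60 genes 3 lie on the X chromosome and none of these had a peak. A gene without a peak is not shown to be unbound.

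Genes that work beside these transporters were read from 3 lists. Of 31 amino acid carriers of other families 6 had a promoter peak (19.4%, 7.45 to 37.5%), led by the mitochondrial ornithine carrier SLC25A15 with a score of 123 and MFSD12, a cysteine carrier of lysosomes, with 68. SLC25A29 scored 61, the glutamate carrier SLC25A22 scored 53, SLC25A38 scored 33 and the lysosomal cystine exporter CTNS scored 26. Of 11 partners of monocarboxylate transport 3 had one (27.3%, 6.02 to 60.97%): MPC2, a subunit of the mitochondrial pyruvate carrier, with 97, LDHD with 91 and the lactate dehydrogenase gene LDHA with 64. BSG and EMB, the chaperones of the monocarboxylate transporters, had none. Of 18 amino acid response genes 5 had one (27.8%, 9.69 to 53.5%). ATF4, the transcription factor that induces many of these transporters when amino acids are scarce, scored 416 (chromosome 22, 39520171 to 39520658, -145 bp). ATF5 scored 98, CEBPG 86, DDIT3 45 and ASNS 19. The intervals of all 3 lists include the 15.5% of all protein-coding genes.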

How the data were processed

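Chromatin was immunoprecipitated from cross-linked MDA-MB-231 cells with an mTOR antibody and sequenced as paired ends, per the labels' protocols, with input chromatin named as the peak-calling reference in the series design. Per the submitters' processing notes, which name no settings, the tools were Trimmomatic 0.36, BWA 0.7.12, Picard 2.0.1, MACS2 2.1.1.20160309 and HOMER 4.11.1, on hg38. The authors deposited 1 table of annotated peaks for the ChIP library, with a score per peak and the distance in base pairs to the nearest start site per the file headers. Not given in the sources used here are the score's scale, the peak threshold and the handling of duplicate or multiply aligned reads, each of which could change peaks over repeats and gene copies. Read depth is unknown, and the input library was not analysed here.

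Peak positions, classes and distances were used as deposited. Width includes both end bases. A promoter peak is one assigned to the gene that overlaps 1 kb either side of its start, from the deposited distance and width. Gene names, spans and upstream sequences came from RefSeq tables on GRCh38.p14, and 60 transporter genes and 19970 protein-coding genes were counted on chromosomes 1 to 22 and X, matched by gene identifier. Shares have exact Clopper-Pearson 95% intervals. No test was made, since there is 1 library. The named genes are every transporter gene with a promoter peak or with 3 or more peaks, the 3 highest-scoring and 3 most distant of the other peaks, the lead peak of each family, the genes with no peak and list genes with a promoter peak; further peaks were named after their values were seen. The members, lists and motifs were chosen with earlier results of these data known. Alternatives were the promoter class as deposited, a start-site window of 100 bp or of 5 kb, most of the peak in the window, the 10724 and 2147 highest-scoring peaks with ties, limits of 10 kb and 100 kb, genes of any type and peaks without repeat labels. The promoter rule was tested on simulated peaks. The software was matplotlib 3.10.9, scipy 1.17.1, pandas 2.3.3 and numpy 2.4.6 under Python 3.11.15. Exon models and genome sequence outside the promoter table were not used here.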

Additional observations from a re-analysis of the deposited data

How the results depend on the processing

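Promoter peaks at 7 of the 60 transporter genes became 5 with a window of 100 bp (10.9% of all protein-coding genes) and 10 with 5 kb (20.3%), which added SLC1A7, SLC7A10 and SLC7A2. The deposited promoter class, most of the peak in the window, and leaving out repeat labels each gave the 7 genes again. The higher-scoring 10724 peaks left 3, SLC16A3, SLC7A5 and SLC7A6 (7.45% of all protein-coding genes), and the top 2147 peaks left 1, SLC7A5 (1.58%). These 2 sets held 31 and 6 transporter peaks (50.8% and 9.84%, against 49.9% and 9.95% for protein-coding genes). Without repeat labels 20 remained (32.8%, against 39.2%). The repeat shares of the 2 sets were 83.9% and 83.3%, against 64.2% and 60.8% for protein-coding genes. The top set had a median score of 303, against 302. The share over 50 kb from a start was 16.7% in the top set (1 of 6 peaks, against 20.6% for protein-coding genes). It was 9.09% without the 7 genes that have 3 or more peaks (16.04% for protein-coding genes with the same exclusion). With a limit of 10 kb in place of 50 kb it was 73.8% (60.3% for protein-coding genes). The intergenic share was 39.4% without those 7 genes (34.4% for protein-coding genes with the same exclusion). That exclusion and the intergenic share itself were chosen after the data were seen. The share of centres within 1 kb of a start was 13.1% (5.84 to 24.2%), against 20.5% for protein-coding genes. In the alternatives that kept this limit it was 6.45 to 18.2%, against 18.9 to 28.2% for protein-coding genes. Within 5 kb the shares were 22.95% and 30.9%. No paired analysis was possible because there is 1 ChIP library and no replicate.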
